A study of Rattus norvegicus with 28 samples.

Results

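The 9 genes described here are the immediate early genes Fos (ENSRNOG00000008015), Fosb (ENSRNOG00000046667), Jun (ENSRNOG00000026293), Junb (ENSRNOG00000042838), Egr1 (ENSRNOG00000019422), Egr2 (ENSRNOG00000000640), Arc (ENSRNOG00000043465), Nr4a1 (ENSRNOG00000007607) and Dusp1 (ENSRNOG00000003977). They were taken from the deposited count table by these Ensembl gene IDs, and all 9 were present among its 15635 genes. The study compared nucleus accumbens (NAc), a ventral striatal region, and medial prefrontal cortex (mPFC) of young adult male Sprague-Dawley rats (200-250 g). All animals first took cocaine by self-administration, with extended access on 10 days, and then received lenti-pCDH-H3.3Q5A or lenti-pCDH-H3.3WT on both sides of one of these regions. H3.3Q5A is the histone variant H3.3 with alanine in place of glutamine 5, the residue that carries dopaminylation, and H3.3WT is the unaltered histone. After 30 days in which the virus was expressed and cocaine was withheld, all animals went through a test of cocaine cue-seeking. The groups were NAc with H3.3Q5A, NAc with H3.3WT, mPFC with H3.3Q5A and mPFC with H3.3WT, with 7 libraries in each and 28 libraries in all. No group was left without cocaine, virus or test, so the levels of these genes have no unstimulated baseline here. The sources used here do not give the interval between the test and tissue collection, and no label says what share of the cells carried the virus or how many animals a library holds.

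Immediate early genes are transcribed within minutes of neuronal firing, without new protein synthesis, and their RNAs are lost again within hours. Calcium entry and the ERK kinase cascade activate CREB, which binds cyclic AMP response elements (CREs), and serum response factor (SRF), which binds CArG boxes. Many of the products are transcription factors themselves: Fos, Fosb, Jun and Junb proteins pair to form AP-1, Egr1 and Egr2 are zinc finger factors, and Nr4a1 is an orphan nuclear receptor. Arc acts at synapses, where it promotes removal of AMPA receptors, and Dusp1 is a phosphatase that switches MAP kinases off. In rat studies of drug seeking, these RNAs are widely used as marks of recently active cells in striatum and prefrontal cortex.

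Promoter sequences from RefSeq (build GRCr8), each holding 250 bases before and 50 bases after the annotated start, matched 6 of the 9 genes: Fosb, Junb, Egr1, Egr2, Nr4a1 and Dusp1. The 4 printed here are shown for the elements through which this class is known to be switched on: the CArG boxes of Egr1 and Egr2, the full CRE of Dusp1 and the 4 CRE cores of Nr4a1. Fosb had neither element, and Junb a single CRE core. They are written 5′ to 3′ on the strand of the gene, and capitals mark CArG boxes and the CRE core letters (TGACG, or CGTCA on the other strand).
Egr1, chr18:26736828-26737127, plus strand: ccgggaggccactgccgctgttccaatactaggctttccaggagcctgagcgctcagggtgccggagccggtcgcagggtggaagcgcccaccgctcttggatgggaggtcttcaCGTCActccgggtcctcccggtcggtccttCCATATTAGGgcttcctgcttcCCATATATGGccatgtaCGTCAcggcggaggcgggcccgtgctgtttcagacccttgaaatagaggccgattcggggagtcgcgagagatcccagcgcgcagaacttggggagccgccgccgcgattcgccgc
Egr2, chr20:21054392-21054691, minus strand: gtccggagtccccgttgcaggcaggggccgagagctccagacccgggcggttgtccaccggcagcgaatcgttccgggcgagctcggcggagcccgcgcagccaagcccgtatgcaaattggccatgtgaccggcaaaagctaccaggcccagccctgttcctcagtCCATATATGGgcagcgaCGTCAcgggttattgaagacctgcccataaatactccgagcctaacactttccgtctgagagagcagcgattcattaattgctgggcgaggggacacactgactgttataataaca
Dusp1, chr10:17184603-17184902, plus strand: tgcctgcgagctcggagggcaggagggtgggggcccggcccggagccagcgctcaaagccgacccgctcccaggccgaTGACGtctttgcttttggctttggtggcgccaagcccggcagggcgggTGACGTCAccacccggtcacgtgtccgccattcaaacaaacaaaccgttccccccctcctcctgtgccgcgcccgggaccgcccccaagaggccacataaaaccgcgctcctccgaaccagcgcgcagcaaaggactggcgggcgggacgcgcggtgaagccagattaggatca
Nr4a1, chr7:134259888-134260187, plus strand: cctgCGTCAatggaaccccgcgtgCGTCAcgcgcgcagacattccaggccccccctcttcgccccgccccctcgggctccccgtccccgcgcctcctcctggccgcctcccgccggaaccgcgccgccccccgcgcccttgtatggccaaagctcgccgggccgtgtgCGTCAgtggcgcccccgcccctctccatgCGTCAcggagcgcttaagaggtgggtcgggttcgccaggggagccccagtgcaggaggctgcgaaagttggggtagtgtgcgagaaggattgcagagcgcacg
Both strands were searched. Egr1 had 2 CArG boxes and Egr2 had 1, an element found in 1.64% of the 33469 promoters of the same length. The single full CRE (TGACGTCA) lay in Dusp1, and 1.83% of all promoters held one. CRE cores numbered 4 in Nr4a1, 3 in Dusp1, 2 in Egr1 and 1 each in Egr2 and Junb, against 21.2% of all promoters with at least 1. A full CRE counts as 2 cores, 1 on each strand. None of the 6 windows held an AP-1 site (TGANTCA, in 7.33% of all promoters). Nr4a1 held 1 EGR site (GCGNGGGCG, in 4.98%), and Fosb and Junb each held the letters TATAAA, as did 14.2% of all promoters. These matches describe letters in a window and no binding was measured.

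Total counts, in mega-counts (M), averaged 26.6 ± 11.5 M in NAc H3.3Q5A, 26.7 ± 5.93 M in NAc H3.3WT, 36.6 ± 6.72 M in mPFC H3.3Q5A and 29.1 ± 7.36 M in mPFC H3.3WT libraries (SD, n = 7 each). Levels are in CPM, read counts scaled to a common library size with TMM factors. They are not set against each other between genes, since no transcript lengths were at hand. A region score, the mean log2 CPM of 258 NAc-high genes minus that of 273 mPFC-high genes with the 9 genes left out, ran at 3.64 ± 0.52 in NAc H3.3Q5A, 3.02 ± 0.69 in NAc H3.3WT, -2.27 ± 0.56 in mPFC H3.3Q5A and -2.36 ± 0.25 in mPFC H3.3WT. Since the genes of the score were chosen for their difference between these same libraries, its sign by region is no check of the labels, and it serves only to compare libraries within a region. The mPFC H3.3Q5A replicate 34 had the mPFC score nearest to NAc, at -1.03. In turn, NAc H3.3WT replicate 12 had the NAc score nearest to mPFC, at 2.07. That library was the highest of NAc H3.3WT for Fos, Fosb, Junb, Egr1, Arc and Dusp1, but not for Jun, Egr2 or Nr4a1. In NAc, the 100 top genes took 17.9% of counts in H3.3Q5A replicate 3 and 17.7% in H3.3WT replicate 17, against at most 14.7% in the other 12 NAc libraries. The TMM factor of H3.3Q5A replicate 3 was 0.856, the lowest in NAc. Markers of the labelled tissues and of other cell types are known by symbol, which the table does not give, and were not analysed here. Each title also carries a mark, P1 or P2, whose meaning is not stated. Apart from alternatives named as such, each fold change comes from a fit with the mark as a term. The correlations and spreads had the group means taken off and the mark left in, except where stated.

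**Figure D1:**
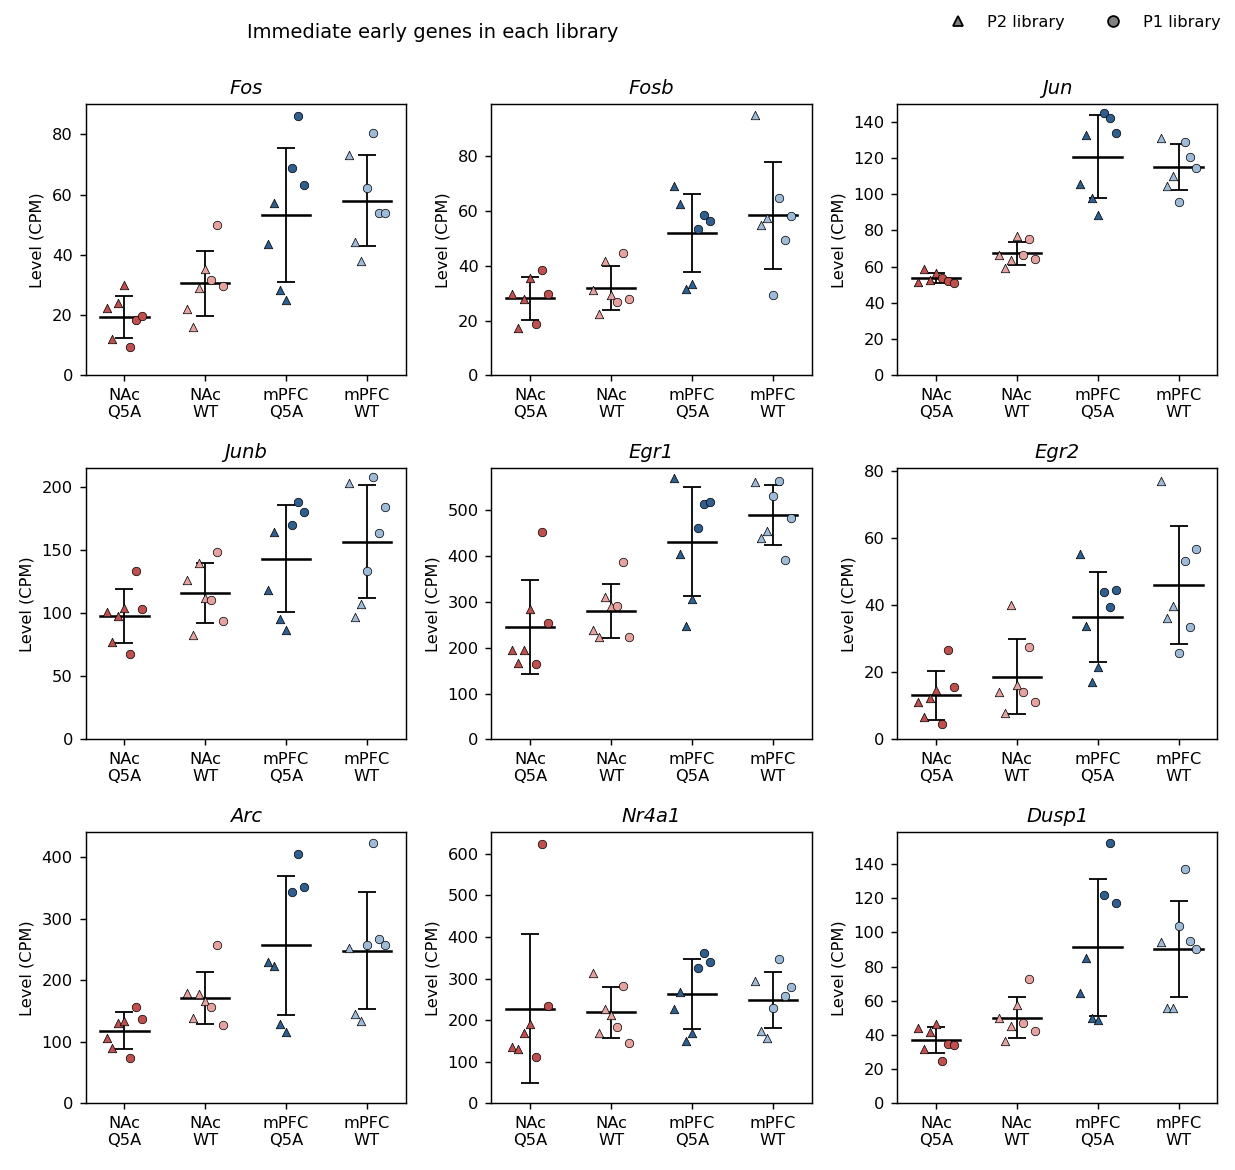
Level of each gene in every library, in CPM on linear axes that start at 0, by region and virus (Q5A, H3.3Q5A; WT, H3.3WT). Triangles are P2 and circles P1 libraries, lines are group means and bars ± 1 SD (n = 7 each); NAc Jun values with H3.3Q5A all sit below those with H3.3WT, and mPFC groups are spread widely for Arc and Dusp1.

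In NAc, all 9 genes had fitted log2 fold changes below 0 for H3.3Q5A over H3.3WT, but none passed the test across all genes. Of all genes, 48.5% were below 0. The 9 genes varied together between libraries (median r 0.71, given below), so these are not 9 independent results. Nr4a1, at -0.03, stood at 0.064 without the mark as a term. The median over the 9 was -0.33, beside 0.01 for the 15315 genes tested. At an adjusted p under 0.05, edgeR's quasi-likelihood test called 0 of the 9 and 0% of all genes. At an unadjusted p under 0.05 there were 4 of the 9, namely Jun, Arc, Dusp1 and Fos, against 7.84% of all genes. On leaving out single libraries that count was 3 in 5 of 14 fits and 5 at most. Without H3.3Q5A replicate 2, Fos stood at -0.49 (unadjusted edgeR p 0.068). Without H3.3WT replicate 12, Arc stood at -0.40 and Dusp1 at -0.32. Jun ran from -0.36 to -0.29 over such fits. In these bulk samples, fewer cells of a type and less RNA per cell cannot be told apart.

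Among the AP-1 subunits, Jun had the tightest values. Jun, the main partner of Fos proteins, stood at 50.96 (lowest), 52.4 (median) and 58.6 (highest) CPM in NAc H3.3Q5A, against 59.3, 66.2 and 76.9 CPM in NAc H3.3WT. The highest H3.3Q5A library, replicate 19, lay just under the lowest H3.3WT library, replicate 20. The groups thus did not overlap, though the share of all genes without overlap was not counted here or below. The log2 fold change was -0.33 (SE 0.06, 95% interval -0.47 to -0.19), with an unadjusted p of 0.000166 that ranked 3 of 15315 genes and an edgeR adjusted p of 0.637. DESeq2 put the adjusted p of Jun at 0.00687 and called it, 1 of 9 genes that tool called in the whole table, while limma voom called 4 genes and none of these 9. Jun was thus called by 1 of the 3 tools. Within P2 libraries the Jun log2 fold change was -0.29, and within P1 libraries -0.39.

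Fos, whose protein needs a Jun partner to bind DNA, had 9.32, 19.7 and 29.9 CPM (lowest, median, highest) in NAc H3.3Q5A and 16.1, 29.6 and 49.9 CPM in NAc H3.3WT. The groups overlapped over much of their range: replicate 2 was lowest with H3.3Q5A and replicate 12 highest with H3.3WT. Its log2 fold change was -0.65 (SE 0.27, unadjusted p 0.031, edgeR adjusted p 0.637). That value was unequal between the marks, at -0.22 in P2 and -1.24 in P1 libraries. Fosb, source of the stable ΔFosB protein known to build up in rodent striatum under repeated cocaine, had medians of 29.7 CPM with H3.3Q5A and 29.2 CPM with H3.3WT. Its log2 fold change of -0.18 (SE 0.19) had an edgeR adjusted p of 0.796. Junb, a Jun family member that often restrains Jun, had medians of 101 CPM with H3.3Q5A and 112 CPM with H3.3WT. The Junb log2 fold change was -0.25 (SE 0.16, edgeR adjusted p 0.668), and both genes overlapped between the viruses. Leaving out 1 library gave Fosb values of -0.28 (without H3.3Q5A replicate 3) to -0.083 (without H3.3WT replicate 12), and Junb values of -0.35 (without H3.3Q5A replicate 3) to -0.16 (without H3.3Q5A replicate 2).

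Among the zinc finger and nuclear receptor genes, single libraries decided much of the NAc values. Egr1, a factor tied to lasting synaptic change, had 165, 196 and 452 CPM (lowest, median, highest) with H3.3Q5A and 223, 291 and 387 CPM with H3.3WT. The H3.3Q5A group held both the lowest and the highest NAc library for Egr1, replicates 2 and 3. The log2 fold change was -0.21 (SE 0.20), with -0.40 without replicate 3 and -0.12 without replicate 2. Egr2, its relative, ran at 4.47, 12.3 and 26.7 CPM with H3.3Q5A and at 7.87, 14.3 and 39.97 CPM with H3.3WT, with a log2 fold change of -0.54 (SE 0.40). It was -0.81 without H3.3Q5A replicate 3 and -0.18 without H3.3WT replicate 21. Its highest library over its lowest was 5.97-fold with H3.3Q5A and 5.08-fold with H3.3WT. Nr4a1 had 113, 168 and 622 CPM with H3.3Q5A, and 144, 211 and 314 CPM with H3.3WT. The 622 CPM came from replicate 3 alone. The Nr4a1 log2 fold change of -0.03 (SE 0.34) had an interval of -0.76 to 0.70. It was -0.43 without that library and 0.11 without NAc H3.3WT replicate 17, -0.56 within P2 and 0.67 within P1 libraries. None of these 3 genes was called, and their groups overlapped.

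For the effectors Arc and Dusp1, each of the 7 NAc H3.3Q5A libraries lay below the H3.3WT median, though the groups overlapped. For Dusp1 this was nearly a tie, with the highest H3.3Q5A library at 46.68 CPM and the H3.3WT median at 46.76 CPM. The share of all genes with such a pattern was not counted. Arc had 72.9, 131 and 156 CPM with H3.3Q5A and 127, 167 and 257 CPM with H3.3WT. Its log2 fold change was -0.53 (SE 0.18, unadjusted p 0.00976, edgeR adjusted p 0.637), with -0.53 in P2 and -0.56 in P1 libraries. Dusp1 had 24.7, 34.8 and 46.7 CPM with H3.3Q5A against 36.8, 46.8 and 72.6 CPM with H3.3WT. The log2 fold change was -0.45 (SE 0.16, unadjusted p 0.0131, edgeR adjusted p 0.637), with -0.21 in P2 and -0.79 in P1 libraries.

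The region score also moved with the virus in NAc, being higher in H3.3Q5A than in H3.3WT libraries on average, and Jun deviations ran against it (r = -0.62 over 14 NAc libraries once group means were taken off). That relation had a permutation p of 0.035, adjusted to 0.509 over 36 tests. Spearman's rho was -0.57 (permutation p 0.0523, adjusted 0.405), and r without the 2 most extreme scores was -0.36. With the region score as a further term, the Jun log2 fold change was -0.25 (unadjusted p 0.00152) and Arc -0.61 (unadjusted p 0.0138). Fos was then -0.56 (unadjusted p 0.116) and Dusp1 -0.36 (unadjusted p 0.0771), while Egr2 was -0.98 and Junb -0.38. The number of the 9 genes at an unadjusted p under 0.05 was again 4, with Junb and Egr2 in place of Fos and Dusp1, and 0 had an edgeR adjusted p under 0.05. All 9 values stayed below 0.

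**Figure D2:**
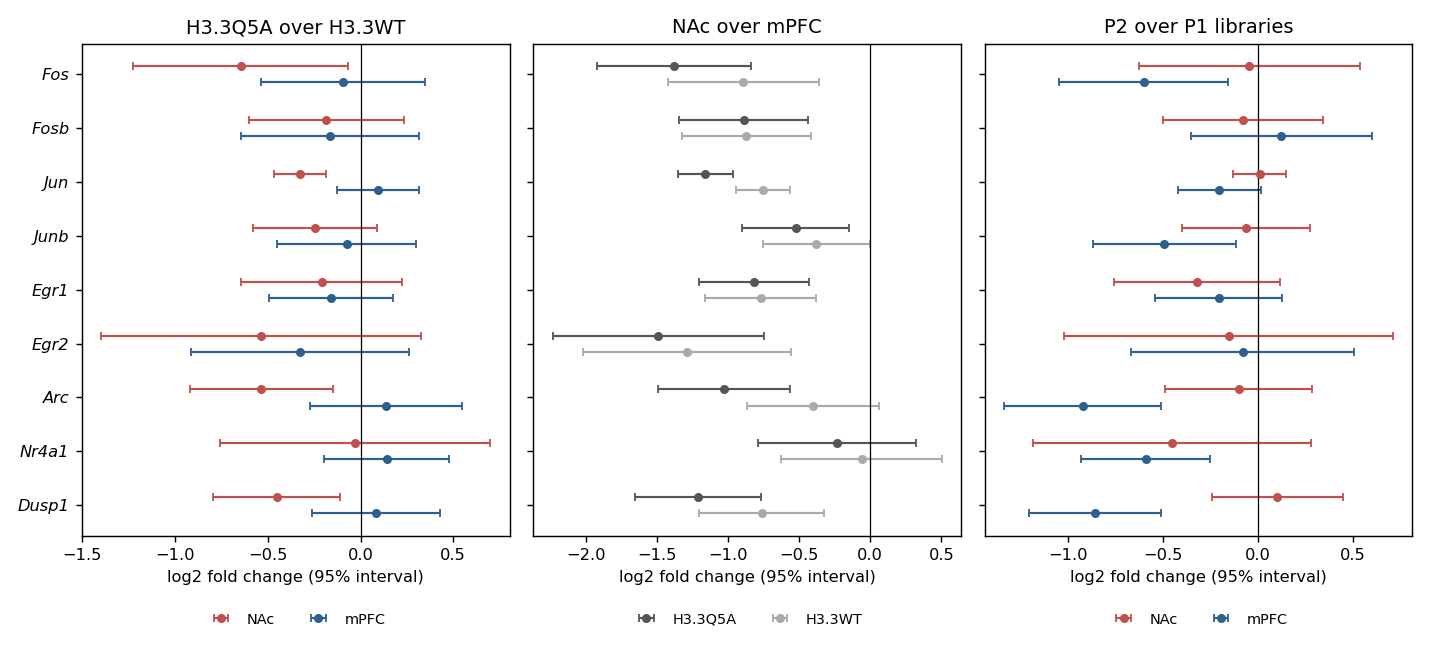
Fitted log2 fold changes (points) with 95% intervals (bars) from edgeR for the 9 genes, for H3.3Q5A over H3.3WT in each region, NAc over mPFC under each virus, and P2 over P1 libraries in each region. Virus points in NAc all lie left of 0, with Jun at -0.33, and the region points all lie left of 0, with Nr4a1 nearest to it.

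In mPFC the 9 genes showed no common direction with the virus. Log2 fold changes of H3.3Q5A over H3.3WT were below 0 for 5 genes and above 0 for 4, with a median of -0.07, beside 0.002 over 15485 genes. EdgeR called 0 of the 9 at an adjusted p under 0.05, as for 0% of all genes, and 0 of the 9 had an unadjusted p under 0.05, against 7.89% of all genes. DESeq2 also called 0 of the 9, with 8 genes called in all, and limma voom called 0 genes in all. Jun stood at 88.2, 133 and 145 CPM (lowest, median, highest) in mPFC H3.3Q5A and at 95.7, 114 and 131 CPM in mPFC H3.3WT, with a log2 fold change of 0.09 (interval -0.13 to 0.31). Arc had 116, 229 and 404 CPM with H3.3Q5A and 134, 257 and 422 CPM with H3.3WT, a log2 fold change of 0.14 (interval -0.27 to 0.55). For both genes nearly the whole ranges overlapped. Fos had 24.9, 57.1 and 86.1 CPM with H3.3Q5A against 37.8, 53.9 and 80.6 CPM with H3.3WT, and a log2 fold change of -0.10 (interval -0.54 to 0.35). The widest interval was that of Egr2, -0.92 to 0.26 around -0.33. The other log2 fold changes were -0.16 for Fosb, -0.07 for Junb, -0.16 for Egr1, 0.14 for Nr4a1 and 0.08 for Dusp1.

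The fitted direction in mPFC was opposite in the 2 marks, but a difference of the virus effect between marks was not tested. Each mark held 3 or 4 libraries per group. Some values were near 0, such as Arc at -0.0101 in P2 and Egr2 at 0.0096 in P1 libraries. The 9 genes varied together in mPFC (median r 0.74, given below), so 9 values of 1 sign are not 9 independent results. Within P2 libraries all 9 log2 fold changes were below 0, with a median of -0.21, and within P1 libraries all 9 were above 0, with a median of 0.22. No gene was called in either set. P2 libraries of H3.3Q5A included replicates 34 and 37, which were low for all 9 genes. In P1 libraries 1 gene, Jun, had an unadjusted p under 0.05 (0.0173, log2 fold change 0.29).

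The difference between the virus effects of the regions was tested as an interaction over 28 libraries. All 9 interaction values, NAc minus mPFC, were below 0, with a median of -0.20, beside 50.2% of all genes below 0. EdgeR called 0 of the 9 and 0% of all genes. The interaction value of Jun was -0.40 (SE 0.13, unadjusted p 0.00458, edgeR adjusted p 0.904). It was the only one of the 9 with an unadjusted p under 0.05, against 5.26% of all genes. For Arc the value was -0.63 (SE 0.31, unadjusted p 0.0564), for Fos -0.49 (SE 0.36) and for Dusp1 -0.45 (SE 0.30). The remaining values were nearer 0: -0.20 for Egr2, -0.17 for Nr4a1, -0.15 for Junb, -0.05 for Egr1 and -0.02 for Fosb. Within P1 libraries Jun was at -0.68, Fos -1.46, Dusp1 -1.08, Arc -0.84 and Nr4a1 0.38. Within P2 libraries Jun was at -0.18, Fos 0.20, Dusp1 -0.07, Arc -0.51 and Nr4a1 -0.54. An unadjusted edgeR p under 0.05 was held by 3 of the 9 in P1 (1170 genes in all). In P2 libraries 0 of the 9 held one (1252 genes in all). A difference between the marks was not tested. DESeq2 called 0 of the 9 and 0 genes in all, and limma voom called 0 of the 9 with 9 genes called in all.

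Between the regions, immediate early gene RNA was lower in NAc than in mPFC. Under H3.3Q5A, 8 of the 9 genes fell in NAc (edgeR adjusted p under 0.05), where 55.4% of all genes differed and 27.7% were lower in NAc. Under H3.3WT, 6 of the 9 fell, where 53.3% of all genes differed and 27.1% were lower in NAc. The median log2 fold change, NAc over mPFC, was -1.03 under H3.3Q5A and -0.76 under H3.3WT, beside 0.003 under H3.3Q5A and -0.01 under H3.3WT over all genes. Limma voom called 9 of the 9 under H3.3Q5A, among 9972 genes in all, and 8 under H3.3WT, among 9614. The comparisons under the 2 viruses use different libraries but 1 shared estimate of spread.

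The AP-1 subunits differed most tightly through Jun. Under H3.3Q5A, Jun averaged 53.7 ± 2.795 CPM in NAc and 121 ± 22.8 CPM in mPFC (SD, n = 7 each), with no overlap and a log2 fold change of -1.16 (SE 0.09, edgeR adjusted p 8.08e-11). Under H3.3WT it averaged 67.4 ± 6.37 CPM in NAc and 115 ± 12.7 CPM in mPFC, a log2 fold change of -0.76 (SE 0.09, edgeR adjusted p 1.83e-07), again with no overlap. Every one of the 14 NAc libraries was thus below every mPFC library under the same virus. The share of all genes so separated was not counted, and 55.4% of all genes under H3.3Q5A and 53.3% under H3.3WT were called. No excess is therefore read from the lack of overlap, for Jun here or for Egr1 and Dusp1 below. Fos was lower in NAc by a log2 fold change of -1.38 under H3.3Q5A (SE 0.27, edgeR adjusted p 8.49e-05) and of -0.89 under H3.3WT (SE 0.26, edgeR adjusted p 0.00514). For Fosb the value was -0.89 under H3.3Q5A and -0.87 under H3.3WT (SE 0.22 each). Junb fell under H3.3Q5A, by -0.53 (edgeR adjusted p 0.0164), while under H3.3WT it stood at -0.38 (edgeR adjusted p 0.0832). Junb under H3.3WT was called without mPFC H3.3WT replicate 35 or NAc H3.3WT replicate 21, at edgeR adjusted p of 0.0411 and 0.0463, and by limma voom with all libraries, at an adjusted p of 0.0175.

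Egr2 had the largest fold of the 9 in both comparisons, with a log2 fold change of -1.49 under H3.3Q5A (SE 0.36, edgeR adjusted p 0.00104) and -1.29 under H3.3WT (SE 0.36, edgeR adjusted p 0.00361). Its levels averaged 13.1 ± 7.22 CPM in NAc and 36.5 ± 13.5 CPM in mPFC under H3.3Q5A (SD, n = 7 each). Egr1 averaged 280.5 ± 58.8 CPM in NAc and 489 ± 65.5 CPM in mPFC under H3.3WT (SD, n = 7 each). The 2 groups of Egr1 did not overlap there, with a log2 fold change of -0.77, and under H3.3Q5A it was -0.82. Nr4a1 was the exception among the 9: its log2 fold change was -0.23 under H3.3Q5A (edgeR adjusted p 0.48) and -0.06 under H3.3WT (edgeR adjusted p 0.863). Without NAc H3.3Q5A replicate 3, the Nr4a1 value under H3.3Q5A was -0.64 with an edgeR adjusted p of 0.0143. Limma voom, which weights libraries by quality, called Nr4a1 under H3.3Q5A (-0.76, adjusted p 0.00339) with all libraries in, but not under H3.3WT (adjusted p 0.15).

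Of the effectors, Dusp1 averaged 36.9 ± 7.72 CPM in NAc and 91.4 ± 39.97 CPM in mPFC under H3.3Q5A (SD, n = 7 each), and the groups did not overlap. The log2 fold change was -1.21 under H3.3Q5A (edgeR adjusted p 3.53e-05) and -0.76 under H3.3WT (edgeR adjusted p 0.00407). Arc fell in NAc under H3.3Q5A, by -1.03 (edgeR adjusted p 0.000381). Under H3.3WT its value was -0.40 (edgeR adjusted p 0.135), or -0.60 by limma voom (adjusted p 0.0183). That Arc passed under 1 virus and not the other is not a tested difference: the interaction value above is that test. Within marks, 5 of the 9 genes fell in P2 and 7 in P1 libraries under H3.3Q5A, and 5 in P2 and 3 in P1 libraries under H3.3WT. Of at most 15635 genes, 5703 were called in P2 and 6749 in P1 libraries under H3.3Q5A, in either direction. Under H3.3WT, 5818 were called in P2 and 5189 in P1 libraries. The share lower in NAc was not counted within marks, so no excess among the 9 genes is read from these counts.

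In mPFC the mark itself went with the level of several of these genes. P2 over P1 log2 fold changes were below 0 for 8 of the 9 and for 52.9% of all genes. The median was -0.49 for the 9, beside -0.01 over all genes. EdgeR called 0 of the 9 at an adjusted p under 0.05 and 0% of all genes. At an unadjusted p under 0.05 there were 5 of the 9, namely Dusp1, Arc, Nr4a1, Fos and Junb, against 6.15% of all genes. Arc had 116, 146 and 251 CPM (lowest, median, highest) in 7 P2 libraries and 257, 343 and 422 CPM in 7 P1 libraries, with no overlap. The share of all genes without overlap between the marks was not counted. Its log2 fold change was -0.92 (SE 0.19, edgeR adjusted p 0.328, DESeq2 adjusted p 0.00231). Dusp1 had 48.6, 55.8 and 94.3 CPM in P2 and 90.4, 117 and 152 CPM in P1 libraries, and the sets overlapped only slightly. The Dusp1 log2 fold change was -0.86 (SE 0.16, edgeR adjusted p 0.284, DESeq2 adjusted p 0.000593, limma voom adjusted p 0.0388), and without mPFC H3.3WT replicate 21 edgeR called it. Over all genes DESeq2 called 37 for this contrast and limma voom 4. Nr4a1 stood at -0.59, Fos at -0.60 and Junb at -0.49, while Jun stood at -0.20, Egr1 at -0.21, Egr2 at -0.08 and Fosb at 0.12. With the region score as a further term, Arc was -0.94 and Dusp1 -0.87.

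In NAc the same contrast gave 7 of the 9 values below 0 with a median of -0.08, beside 51% of all genes below 0. Nr4a1 was at -0.45 and Egr1 at -0.32, with Egr2 at -0.15, Arc at -0.10, Fosb at -0.08, Junb at -0.06 and Fos at -0.05, while Jun was at 0.01 and Dusp1 at 0.10. Without H3.3Q5A replicate 3, Nr4a1 stood at 0.042. EdgeR called 0 of the 9 and 0% of all genes, and 0 of the 9 had an unadjusted p under 0.05, against 4.45% of all genes. DESeq2 and limma voom called 0 of the 9 there, with 1 gene called in all by DESeq2 and 3 by limma voom. Whether the mark acted differently in the 2 regions was not tested.

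Libraries of the same group differed more in these genes than in most others. The SD of log2 CPM within groups had a median of 0.39 over the 9 genes in NAc, beside 0.18 over the 10314 genes at 10 CPM or more. In mPFC it was 0.47, beside 0.15 over 10357 genes. Egr2 had the widest SD in NAc at 0.81, followed by Nr4a1 at 0.65 and Fos at 0.55. Jun was the exception in NAc, with an SD of 0.11 at percentile 18.3 of all genes. In mPFC, Arc was widest at 0.64, then Egr2 and Dusp1 at 0.57 each, and Jun narrowest at 0.23. These SDs hold the mark, which each group mixes. With the mark also taken off, the mPFC median was 0.36, Egr2 was widest at 0.59 and Fosb next at 0.49, while Arc was at 0.40, Dusp1 at 0.34 and Jun at 0.21. In NAc the median was then 0.41, with Egr2 at 0.85 and Jun at 0.11. The spread of Jun was thus smaller than that of the other 8 genes in both regions.

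**Figure D3:**
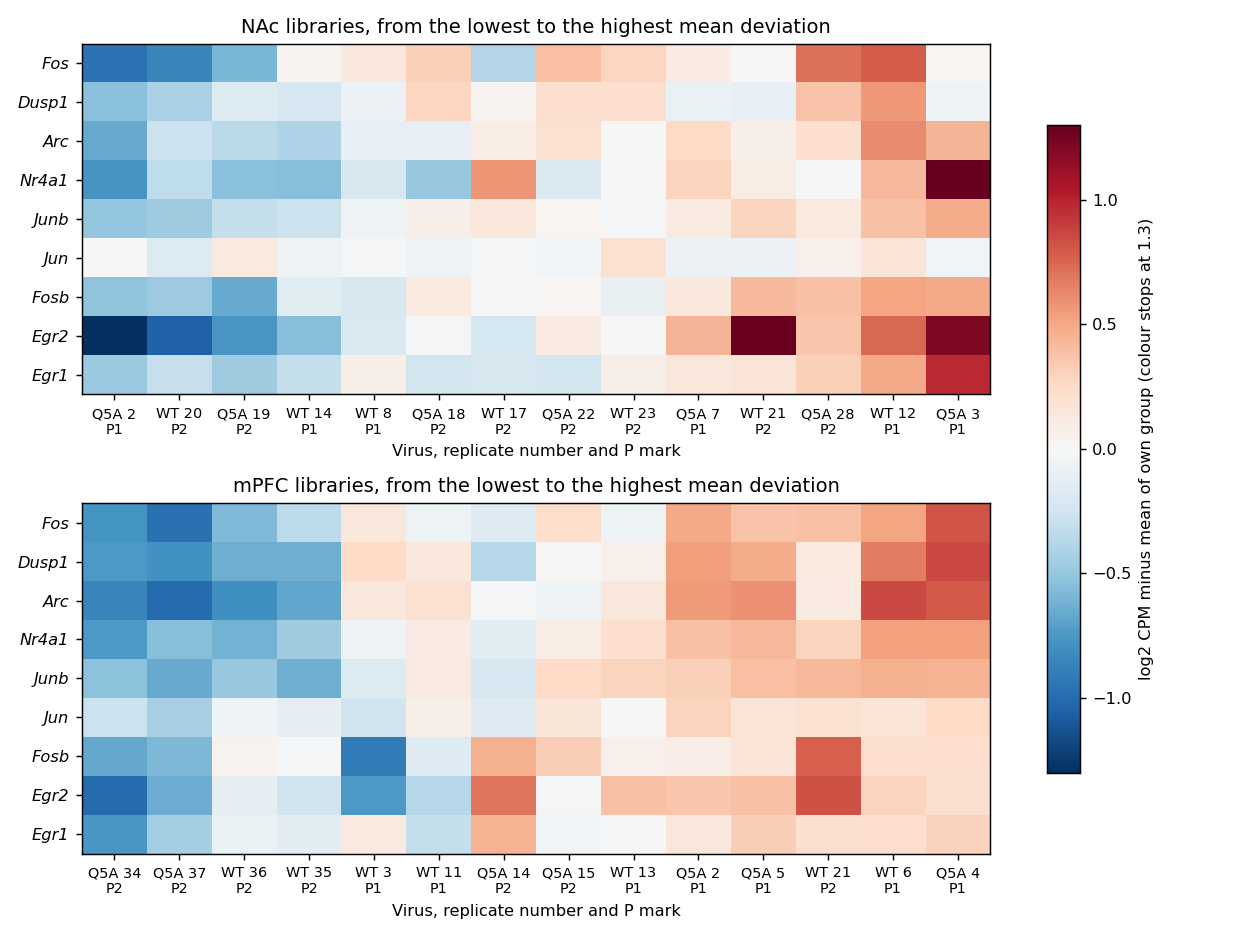
Deviation of each gene from the mean of its own group, in log2 CPM, for the 14 libraries of each region (columns, ordered by their mean deviation). Red is above and blue below the group mean; in mPFC whole columns carry 1 colour, as in H3.3Q5A replicates 34 and 37, while the NAc Jun row stays near white.

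The genes tended to be high or low together from library to library. A library's deviation here is its log2 CPM minus the mean of its own group, averaged over the 9 genes. In NAc, H3.3Q5A replicate 2 had the lowest mean deviation, -0.64, with 8 of 9 genes below their group mean, and H3.3Q5A replicate 3 the highest, 0.58. H3.3WT replicate 12 was at 0.52 with 9 of 9 above, and H3.3WT replicate 20 at -0.48 with 9 of 9 below. In mPFC, H3.3Q5A replicates 34 and 37 were at -0.71 and -0.68 with 9 of 9 below, and H3.3Q5A replicate 4 at 0.49 with 9 of 9 above. Replicate 34 also had the region score of -1.03 given above, while replicate 37 was at -2.65, the lowest in its group. The libraries at either end thus include both viruses in NAc, and in mPFC the 4 lowest were all P2 libraries.

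Pairwise correlations of the deviations put numbers on this. In NAc all 36 pairs had Pearson's r above 0, with a median of 0.71 and a range of 0.03 to 0.95 over 14 libraries. In mPFC all 36 were above 0, with a median of 0.74 and a range of 0.33 to 0.97. Over all 122218795 pairs of genes in the table the median r was about 0 in both regions, and 5.15% of them in NAc and 2.17% in mPFC exceeded the median of the 9 genes. After Benjamini-Hochberg adjustment over 72 permutation tests, 23 pairs in NAc and 28 in mPFC passed 0.05 by Pearson's r, and 20 in NAc and 28 in mPFC by Spearman's rho. Genes in 1 library share its depth, scaling and tissue piece, so these pairs are not independent of each other. None of the 9 genes tracked the region score or the total count at an adjusted permutation p under 0.05 in 36 tests. The smallest was 0.509 by Pearson's r and 0.405 by Spearman's rho. With 14 libraries, the lack of a call does not show that no relation exists. Without the 2 most extreme scores, r with the region score in NAc was 0.68 for Fosb and 0.66 for both Junb and Egr2. It was 0.61 for Nr4a1, 0.54 for Arc, 0.39 for Egr1, 0.08 for Dusp1, 0.02 for Fos and -0.36 for Jun. With all libraries, Fosb was at 0.45, Junb at 0.39, Egr2 at 0.44, Nr4a1 at 0.45 and Arc at 0.21.

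In NAc the tightest group was Junb, Egr2, Fosb and Arc. Junb and Egr2 had r = 0.95 and rho = 0.88 over 14 libraries (permutation p adjusted to 0.000216 for r and 0.000789 for rho), and r = 0.91 without the 2 libraries farthest on Junb. Within marks r was 0.89 in P2 and 0.99 in P1 libraries. Fosb and Junb had r = 0.93 and rho = 0.93 (permutation p adjusted to 0.00018 for r and 0.000144 for rho). Fos ran closest with Dusp1, at r = 0.90 and rho = 0.87 (permutation p adjusted to 0.00045 for r and 0.000789 for rho). Jun stood apart: its r with the other 8 genes was 0.03 to 0.53. Fos and Jun, partners in AP-1, had r = 0.37 and rho = 0.31 (permutation p adjusted to 0.221 for r and 0.32 for rho).

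In mPFC the tightest group was Fos, Dusp1, Arc, Nr4a1 and Junb. The same genes had an unadjusted p under 0.05 for the mark in the edgeR fit above. Since the mark was left in and permutations ran within groups but not within marks, a shared shift between marks enters these values. Within P1 libraries r was 0.41 for Fos and Junb and 0.46 for Junb and Dusp1, against 0.94 and 0.99 in P2. Junb and Nr4a1 kept r = 0.95 in P1 libraries. Arc and Dusp1 had r = 0.97 and rho = 0.98 over 14 libraries (permutation p adjusted to 0.000216 for r and 0.000144 for rho), and r = 0.96 without the 2 libraries farthest on Arc. Within marks r was 0.93 in P2 and 0.92 in P1 libraries. Arc and Nr4a1 had r = 0.96 and rho = 0.93, and Junb and Nr4a1 r = 0.96 and rho = 0.95 (adjusted permutation p 0.000144 to 0.00048). Jun belonged with the others here, with r of 0.56 to 0.87. Fos and Jun had r = 0.86 and rho = 0.89 (permutation p adjusted to 0.00238 for r and 0.00104 for rho), but r was 0.93 in P2 and 0.33 in P1 libraries. Fosb and Egr2 had r = 0.91, while Fosb and Dusp1 had the lowest r in mPFC, 0.33. Fosb ran closer to several genes within marks than with the marks pooled. With Junb its r was 0.85 in P2 and 0.97 in P1 libraries (0.58 pooled), and with Nr4a1 0.92 and 0.87 (0.53 pooled). With Arc it was 0.98 in P2 and 0.57 in P1 libraries (0.42 pooled). With Dusp1 and Fos it was 0.89 and 0.92 in P2, but 0.28 and 0.23 in P1 libraries. No test compared the correlations of NAc with those of mPFC.

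These relations rested in part on single libraries and on the mark. Of the 19 NAc pairs that passed by both coefficients, 2 had r under 0.5 without the 2 libraries farthest on the first gene, and of the 26 such mPFC pairs, 3 had. The median r over pairs within marks was 0.71 in P2 and 0.92 in P1 libraries of NAc, and 0.91 in P2 and 0.64 in P1 libraries of mPFC. Of the 26 mPFC pairs, 8 had r under 0.5 in P1 libraries. Without H3.3Q5A replicates 34 and 37, the median r in mPFC was 0.45, against 0.74 with all libraries.

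**Figure D4:**
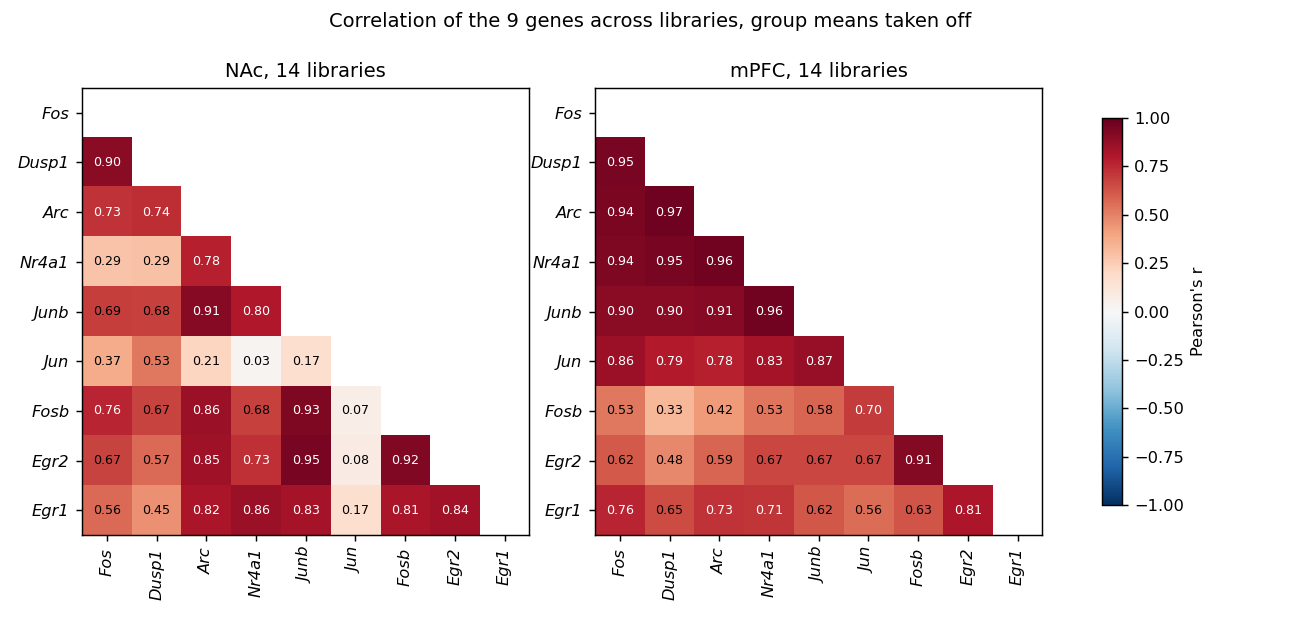
Pearson's r for each pair of the 9 genes over 14 NAc and 14 mPFC libraries, after the mean of each library's own group was taken off log2 CPM; colour runs from -1 (blue) to 1 (red). In NAc the Jun cells are pale, at 0.03 to 0.53. In mPFC the Fosb cells are pale toward Fos, Dusp1, Arc, Nr4a1 and Junb, with both marks pooled.

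The genes outside the list whose deviations most resembled the mean of the 9 were, in NAc, ENSRNOG00000023440 (r = 0.93) and ENSRNOG00000020770 (r = 0.88), and in mPFC, ENSRNOG00000033623 (r = 0.90) and ENSRNOG00000018484 (r = 0.84), each over 14 libraries. These were picked as the highest of all genes and carry no test, and the table pairs none of these IDs with a name.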

How the data were processed

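The deposited table holds raw read counts per Ensembl gene, 1 column per library, with no normalization by the authors. The submitters' processing notes list build rn6 and, as tools, featureCounts 2.0.1, HISAT2 2.1.0 and DESeq2 1.6.3, without their roles. Per the labels' protocols, polyA RNA was extracted with Trizol, cleaned on RNeasy Micro columns and made into libraries with the TruSeq RNA V2 kit. That kit marks no strand, so reads of overlapping antisense genes cannot be told apart. Every gene in the table reaches 10 counts in at least 14 libraries. No 2 libraries of a group agreed within sampling noise (smallest chi-square per degree of freedom 7.766).

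Virus and mark were fitted within each region on 14 libraries, and regions and the interaction on 28, with edgeR 4.0.16 (R 4.3.3) by its quasi-likelihood test (TMM factors, filterByExpr, mark as an additive term). Benjamini-Hochberg adjustment ran over all genes tested, and calls are at 0.05. DESeq2 1.42.0 and limma 3.58.1 (voom with quality weights) were alternatives, with others given in the closing section. Fold changes are log2. Log2 CPM for correlations used a prior count of 2, each with 100000 permutations of libraries within groups, two-sided (numpy 2.4.6, scipy 1.17.1). Region gene groups had a log2 fold change of at least 2 between regions. Scripts were tested on simulated data.

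By rule, all 9 genes are named in every comparison, and the 2 IDs most like their mean in each region. Their names come from the list of IDs. The reference table paired 0 IDs with symbols, so further activity genes and cell type markers were not analysed here. The members and lists were chosen with earlier results of these data known. Since the labels do not say which animals a library came from, p-values cover the spread between libraries, which may be technical.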

Additional observations from a re-analysis of the deposited data

Results flagged for a closer look

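Nr4a1 in NAc H3.3Q5A replicate 3 stood at 622 CPM, with the next library of that group at 235 CPM. Its gap to that library on the log2 scale took 0.571 of the range of the 7 libraries, just above Dixon's critical value at the 95% level. It was the only such library in 36 groups of gene and condition, where chance gives about 1 in 20. The same library had the highest Fosb, Junb, Egr1, Egr2 and Arc of its group, while its Fos, Jun and Dusp1 lay close to their group means. Its 100 top genes took 17.9% of counts, against at most 14.7% in 12 other NAc libraries, and its TMM factor was 0.856. The part of this in its Nr4a1 value was not tested.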

How the results depend on the processing

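Of 1746 alternative values of the fold changes of the 9 genes, 1659 kept their direction and their side of the threshold, 8 lost a call, 11 gained one and 68 turned in direction. None of 396 alternative group means moved by more than 1 SD of the group's own libraries. Leaving out 1 of 7 libraries cannot move a mean that far, so those alternatives could not fail this limit. No paired analysis was possible because the groups compared share fewer than 2 replicate numbers. The count called for the virus in NAc was 1 with DESeq2, of 9 genes in all. The count for the mark in mPFC was 2 with DESeq2 (of 37 genes in all), 1 with limma voom (of 4) and 0 to 1 on leaving out single libraries. For the region under H3.3Q5A it was 5 in P2 libraries alone (of 5703 genes in all), where fewer samples entered. Under H3.3WT it was 3 in P1 libraries alone (of 5189 in all), again with fewer samples. Limma voom gave 9 under H3.3Q5A and 8 under H3.3WT. The median r in mPFC was 0.45 without replicates 34 and 37 of H3.3Q5A.

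The 68 turns lay in the interaction (20), the mark in NAc (20), the virus in mPFC (14) and NAc (7), the region under H3.3WT (4) and the mark in mPFC (3). In P1 libraries alone, the virus values in mPFC were Fos 0.22, Fosb 0.15, Junb 0.061, Egr1 0.017 and Egr2 0.0096, and in P2 libraries alone Jun -0.10, Arc -0.0101, Nr4a1 -0.018 and Dusp1 -0.13. Junb was 0.046 with limma voom. With limma voom the mark in NAc gave Fosb 0.032, Junb 0.0058, Egr2 0.0297 and Arc 0.074. Nr4a1 in NAc was 0.064 without the mark as a term and 0.67 in P1 libraries. The interaction was 0.38 for Nr4a1 in P1, and 0.20 for Fos and 0.30 for Fosb in P2 libraries, and the region value of Nr4a1 under H3.3WT was 0.15 in P2 libraries. The cause was not tested.

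On leaving out single libraries, values that turned ranged, for the virus, over -0.43 to 0.11 (Nr4a1, NAc), -0.19 to 0.089 (Fos, mPFC), -0.27 to 0.0045 (Fosb, mPFC) and -0.16 to 0.12 (Junb, mPFC). For the mark in NAc they ranged over -0.23 to 0.14 (Fos), -0.18 to 0.039 (Fosb), -0.023 to 0.048 (Jun), -0.16 to 0.057 (Junb), -0.47 to 0.17 (Egr2), -0.22 to 0.051 (Arc) and -0.62 to 0.042 (Nr4a1). For the mark in mPFC they ranged over -0.31 to 0.043 (Egr2) and -0.044 to 0.22 (Fosb), for the region under H3.3WT over -0.22 to 0.084 (Nr4a1), and for the interaction over -0.23 to 0.0604 (Egr1), -0.46 to 0.13 (Egr2) and -0.19 to 0.10 (Fosb). The region score as a term, the removal of mPFC H3.3Q5A replicate 34 and H3.3WT replicate 11 together, and the spread with the mark taken off, were chosen after seeing the data, and the first 2 changed no call.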
